A study of Danio rerio with 39 samples.

Results

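The genes described here are pigment cell genes of the zebrafish: the transcription factors *sox10* and *mitfa* and the melanin enzymes *tyr* and *dct*. They were found by searching the gene names of the array for 9 symbols (*dct*, *tyr*, *tyrp1b*, *mitfa*, *kita*, *sox10*, *silv*, *slc24a5* and *slc45a2*), which gave 7 of the 21495 probes, for 4 of the 9 genes. *sox10* (A_15_P103375) and *tyr* (A_15_P102739) had 1 probe each, *dct* had 2 (A_15_P115188 and A_15_P115697) and *mitfa* had 3 (A_15_P111328, A_15_P120590 and A_15_P121123). *tyrp1b* and *kita* are on the array under older names (3 probes) and are given separately, and *silv*, *slc24a5* and *slc45a2* were not found under those names.

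Whole AB* zebrafish embryos were exposed at 4 to 5 h post-fertilization, for 1 h, to 1 ng/mL TCDD (the dioxin) in the carrier DMSO, or to DMSO alone, and pools of embryos were collected on each of days 1 to 5. Each of the 10 groups had 4 replicates, 1 from each of 4 independent experiments, except TCDD on day 2, where replicate 1 was lost to degraded RNA (39 arrays, 19 TCDD and 20 DMSO). On every array the embryo RNA carried the red dye (Cy5) and a common reference, RNA of the zebrafish embryonic fibroblast line Zf4, carried the green dye (Cy3). The RNA was that of whole embryos, so skin melanophores and the pigmented layer of the eye cannot be told apart, nor can fewer cells of a type and less RNA per cell.

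Zebrafish carry black melanophores, yellow xanthophores and silvery iridophores, which derive from the neural crest, whereas the retinal pigment epithelium, also black, derives from the optic cup. Sox10 is needed for neural crest cells to become pigment cells or peripheral glia, and it activates *mitfa*, whose product specifies the melanophore lineage and switches on the melanin enzymes. Tyrosinase (*tyr*) carries out the first and rate-limiting oxidation of tyrosine, and dopachrome tautomerase (*dct*) and Tyrp1 act on later intermediates of eumelanin inside the melanosome.

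Values are given on 2 log2 scales. The log2 ratio is the deposited ratio of embryo to Zf4 signal, on which the main tests were made. The embryo level is the background-subtracted red signal alone, in log2 relative to the 75th percentile of its array, and it was added after the ratios had been seen. The embryo signal of each of the 7 probes exceeded background clearly, by the scanner software's test, on 39 of 39 arrays, and none was saturated or marked as an outlier. In the Zf4 channel both *dct* probes and *sox10* were well above background on 39 arrays and *tyr* on 24. Of the *mitfa* probes, A_15_P111328 was so on 17 arrays and the other 2 on 0, and the software had put a substitute value in place of the Zf4 signal on 12 arrays for A_15_P111328, on 32 for A_15_P120590 and on 37 for A_15_P121123. The spread between replicates of a group was therefore read on both scales: for *mitfa* the pooled SD was 0.98 to 1.10 in the ratios and 0.24 to 0.30 in the embryo levels. Calls are those of limma at an adjusted p (Benjamini-Hochberg over all probes) under 0.05. The share of all probes whose groups did not overlap is not given. A lack of overlap therefore describes the named values only. Levels of probes for different genes are not compared.

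The exposure was visible in *cyp1a*, the classic target of the aryl hydrocarbon receptor, which was 19.9-fold to 97.7-fold higher in TCDD embryos depending on the day, in every experiment. In the embryos the pigment genes moved with age. *dct* rose between day 1 and day 2, and *tyr* was highest on day 2. *mitfa* fell 4.60-fold to 5.08-fold from day 1 to day 5 in the embryo levels. In the ratios that fall was called for A_15_P121123 and for neither other *mitfa* probe. For A_15_P111328 the size of the fall depended on the processing. *sox10* fell 1.67-fold from day 1 to day 5 in the ratios, called in 1 of the 4 fits that left out a replicate. Its fall in the embryo levels was called in all 4. In the main fit, without a term for experiment, none of the 7 probes was called for TCDD on any day. Of all probes, 0.014% to 6.27% were called in the ratios, depending on the day, and 0.0233% to 5.73% in the embryo levels. With the experiment as a block, where the share of all probes is not given, 1 of the 7 was called, the ratio of *mitfa* A_15_P111328 on day 5. That ratio was lower in TCDD embryos, while the embryo level of the same probe was 0.50 higher without a call. The day 5 ratios of the other *mitfa* probes were not called.

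**Figure D1:**
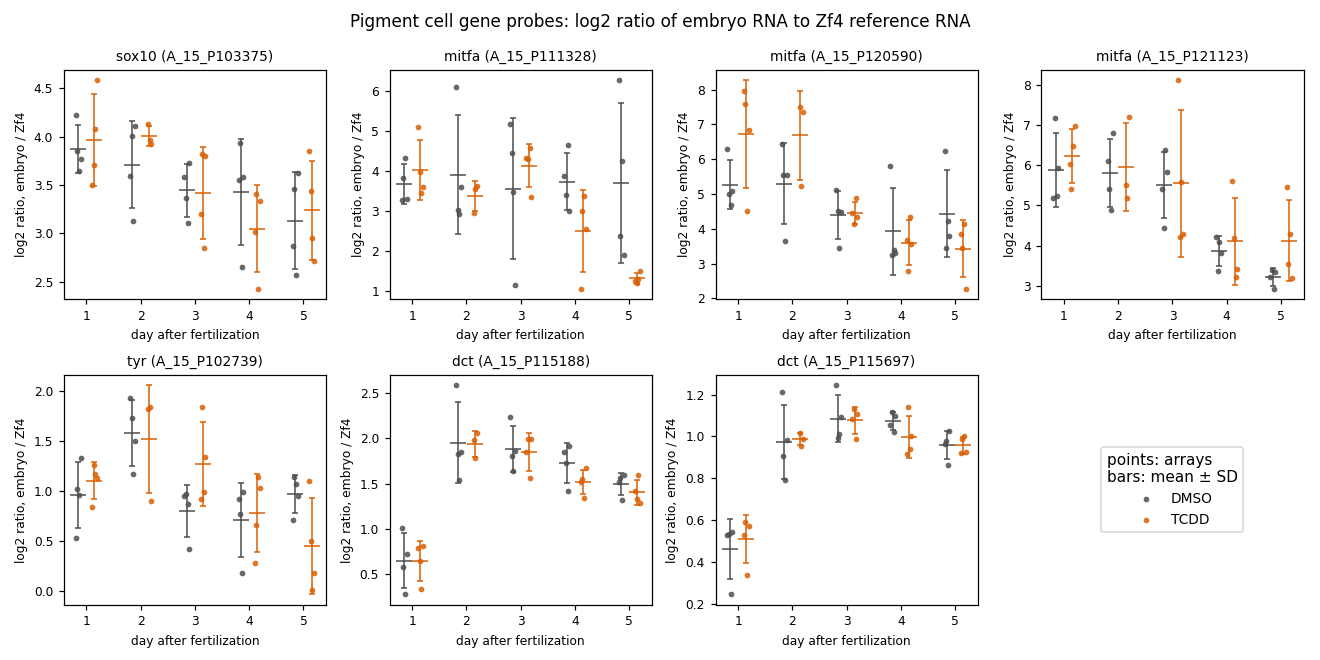
Log2 ratio of embryo to Zf4 reference signal (vertical axis) against day (horizontal axis) for the 7 probes, with each array as a point (DMSO grey, TCDD orange) and the mean and SD of each group as a bar. Both dct probes are lower on day 1 than on every later day, and the mitfa points spread over several log2 units within a group.

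*sox10* was followed first, as the earliest gene of the lineage. Its Zf4 signal was 17.2 to 62.9 intensity units. Its log2 ratios in DMSO embryos, in the order of replicates 1 to 4, were 4.23, 3.85, 3.64 and 3.77 on day 1 and 2.87, 3.46, 2.57 and 3.63 on day 5. All 4 values of day 5 lay below all 4 of day 1. The fall was 0.74 on the log2 scale (SE 0.30, 1.67-fold, limma adjusted p = 0.0417, lower in 4 of 4 experiments), in a comparison where 46.7% of all probes were called. In fits without replicate 1, 2 or 3 the fall was not called (adjusted p up to 0.269), and it was called without replicate 4. The difference was -0.78 within the scan batch of 24 arrays (adjusted p = 0.135) and -0.14 within the batch of 11. In that smaller batch each DMSO group was 1 array and 1 residual degree of freedom was left, so its differences are given as values with no test.

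The embryo level of *sox10* fell by 0.76 from day 1 to day 5 (SE 0.13, 1.70-fold, limma adjusted p = 3.97e-06), and it stayed called without any one replicate. The mean level in DMSO embryos went from 1.57 ± 0.23 (SD, n = 4) on the first day through 1.45 ± 0.21, 1.34 ± 0.22 and 0.88 ± 0.14 to 0.81 ± 0.15 on the fifth. In that descending order only the step from day 3 to day 4 was called (a fall of 0.46, SE 0.13, limma adjusted p = 0.0133), against 10.6% of all probes, and it was not called without replicate 1 or without replicate 4 (adjusted p up to 0.219). TCDD embryos went from 1.62 ± 0.10 on day 1 to 1.03 ± 0.08 on day 5. Within the scan batch that holds 24 arrays the day 5 level lay 0.69 below day 1 (adjusted p = 0.00141), and within the batch of 11 arrays 0.56 below.

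*mitfa*, the master regulator of the melanophore, fell in steps in the embryo levels. For probe A_15_P120590, DMSO replicates 1 to 4 were at -0.07, -0.88, -0.80 and -0.69 on day 1, at -1.39, -1.62, -1.85 and -1.53 on day 3, and at -3.15, -2.62, -3.24 and -2.81 on day 5. The values of day 1, day 3 and day 5 did not overlap. The other probes ran alongside: over the 39 arrays the embryo levels of the 3 probes correlated at r = 0.98 to 1.00, which is a description of probes for one gene on shared arrays.

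From day 1 to day 2 the 3 probes differed by 0.04 to 0.11 and none was called. The fall came in the next 2 steps. Between day 2 and day 3, where 11.7% of all probes were called in the embryo levels, it was 0.94 (SE 0.21) for A_15_P111328, 1.03 (SE 0.17) for A_15_P120590 and 1.06 (SE 0.19) for A_15_P121123, with limma adjusted p of 0.00233, 6.35e-05 and 0.000114. Between day 3 and day 4 (10.6% of all probes called) it was 1.03, 1.12 and 1.16, with adjusted p of 0.00102, 1.76e-05 and 3.49e-05. In both steps every experiment moved down and the groups did not overlap for any of the 3 probes, and all 6 calls were also made in each fit that left out a replicate. The 3 probes measure the same gene on the same arrays, so these calls are not independent of each other. Between day 4 and day 5 the levels differed by 0.18 to 0.34 and no probe was called.

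From day 1 to day 5 the *mitfa* level fell 4.60-fold for A_15_P111328, 5.08-fold for A_15_P120590 and 4.99-fold for A_15_P121123 (differences of -2.20, -2.35 and -2.32, limma adjusted p = 1.44e-10, 2.34e-13 and 1.70e-12), where 47.7% of all probes were called. These 3 calls were also made in each fit that left out a replicate. Within the scan batch of 24 arrays the same differences were -2.08, -2.17 and -2.16 (all called), and within the batch of 11 arrays -1.78, -2.12 and -2.03. The size of the fall depended on the processing. For A_15_P111328 it was -1.57 in the embryo channel alone after dye normalization, and -0.93 in ratios made with another background and dye correction (normexp and loess). That correction added an offset of 50 intensity units to both channels, which narrows the ratios of dim probes, so its value is not an equal measure of the fall. Signal on day 5 was low but measurable, at 29.8 to 73.1 intensity units over the 3 probes in DMSO embryos against 153 to 392 on day 1.

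**Figure D2:**
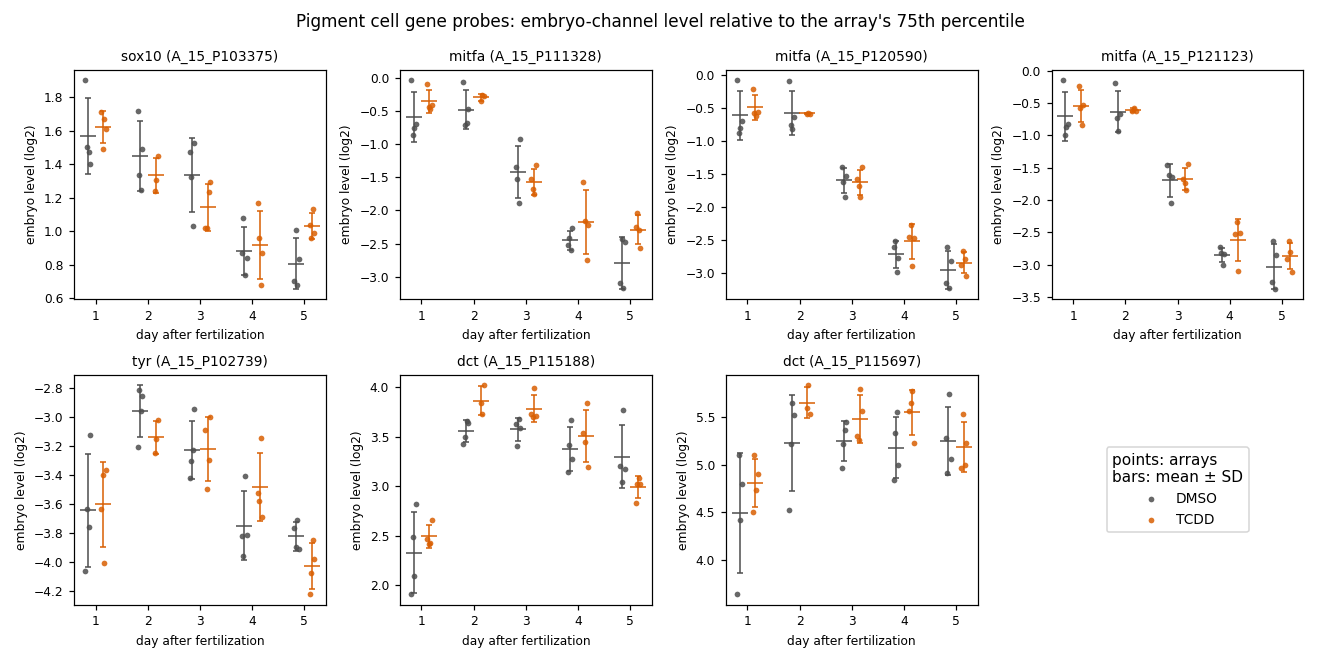
Embryo level (background-subtracted Cy5 signal in log2, relative to the 75th percentile of the array; vertical axis) against day (horizontal axis) for the 7 probes, with each array as a point and the mean and SD of each group as a bar. The 3 mitfa probes step down from day 2 to day 3 and again to day 4 in DMSO embryos, and the mean of tyr is highest on day 2.

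In the log2 ratios, where 46.7% of all probes were called from day 1 to day 5, the same *mitfa* probes gave a less uniform account. A_15_P121123 fell by 2.66 from day 1 to day 5 (SE 0.67, limma adjusted p = 0.00119, without overlap), and the difference was -3.03 within the scan batch of 24 arrays (adjusted p = 0.0188) and -2.58 within that of 11. A_15_P120590 differed by -0.84 (SE 0.70, adjusted p = 0.364) and A_15_P111328 by 0.02 (SE 0.77), and neither was called. From day 3 to day 4, 0 of the 7 ratios were called in DMSO embryos, where 12.9% of all probes were, and 0 in TCDD embryos, where 12% were. The ratios of the 3 probes correlated at r = 0.18 to 0.49 over the 39 arrays. With group means removed, the ratio of A_15_P111328 went with its own Zf4 level at r = -0.88 and with its embryo level at r = -0.39, a description in which the ratio shares the Zf4 signal. This was not particular to that probe. With its own Zf4 level the ratio of *sox10* went at r = -0.91, that of *tyr* at -0.82 and those of *dct* at -0.80 and -0.49. The other *mitfa* probes were at -0.74 and -0.52.

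The embryo level of *mitfa* also fell in TCDD embryos. From day 2 to day 3, where 13.9% of all probes were called, the 3 probes fell by 1.27, 1.05 and 1.07 (limma adjusted p = 0.000156, 0.000129 and 0.000253). From day 3 to day 4 (11.2% of all probes) A_15_P120590 and A_15_P121123 fell by 0.90 and 0.94 (adjusted p = 0.000419 and 0.000574), and A_15_P111328 was 0.61 lower without a call (adjusted p = 0.0646, and 0.0267, a call, with the experiment as a block). In the ratios of TCDD embryos A_15_P120590 fell by 2.24 from day 2 to day 3 (SE 0.76, adjusted p = 0.0472), the 1 of 7 probes called there against 13.4% of all probes. No interaction of day and treatment was called for any of the 7 probes on either scale (lowest adjusted p = 0.885 in the ratios and 1.00 in the embryo levels), where 0.0931% of all probes were called in the ratios and 0.135% in the embryo levels.

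**Figure D3:**
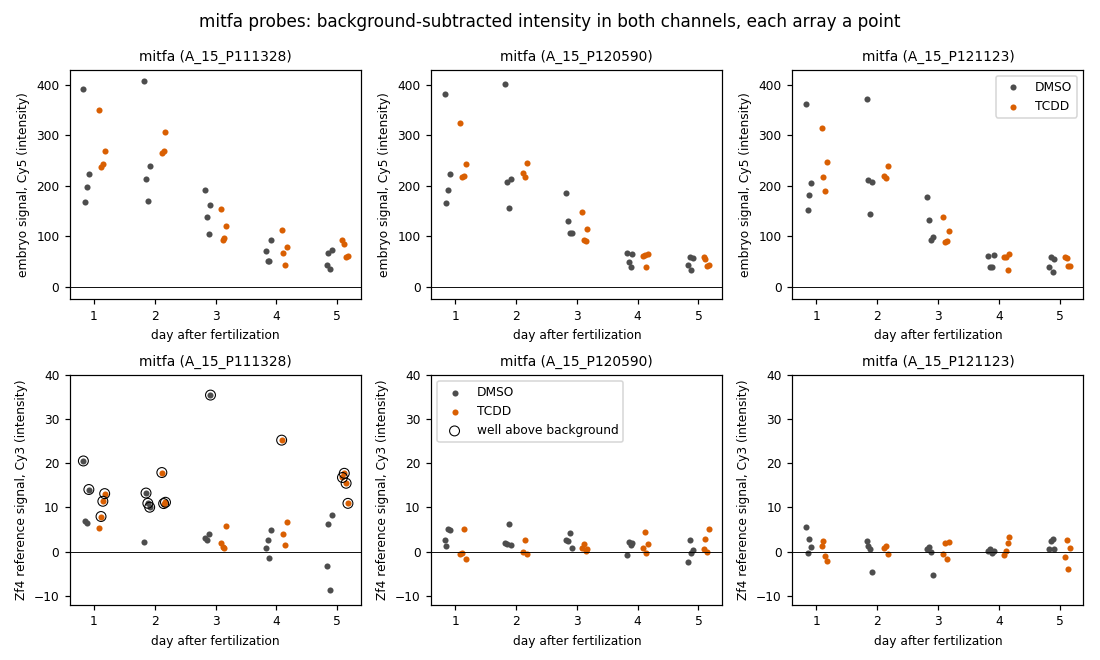
Background-subtracted intensity of the 3 mitfa probes against day, with the embryo signal (Cy5) in the upper row and the Zf4 reference signal (Cy3) in the lower row; each point is an array and a ring marks a Zf4 spot well above background. The embryo signal runs from 29.8 to 407 while the Zf4 signal lies between -8.60 and 35.4, and on day 5 the rings of A_15_P111328 are on the 4 TCDD arrays only.

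Of the enzymes, *dct* rose early and stayed up. The log2 ratio of A_15_P115188 in DMSO replicates 1 to 4 was 1.01, 0.58, 0.28 and 0.72 on day 1 and 2.58, 1.83, 1.53 and 1.85 on day 2. That of A_15_P115697 was 0.53, 0.53, 0.25 and 0.54 on day 1 and 1.21, 0.91, 0.79 and 0.98 on day 2. For both probes every day 2 value was above every day 1 value. The rise was 1.30 (SE 0.17, 2.46-fold, limma adjusted p = 2.28e-07) for A_15_P115188 and 0.51 (SE 0.08, 1.43-fold, adjusted p = 3.93e-06) for A_15_P115697, in 4 of 4 experiments each. These were the 2 of 7 probes called in that step, in which 29% of all probes were called.

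TCDD embryos, in which 24.1% of all probes were called, also showed a *dct* rise in that step, 1.29 (SE 0.18) and 0.48 (SE 0.08) in 3 of 3 experiments, with limma adjusted p of 1.26e-06 and 4.30e-05. After day 2 the DMSO means of A_15_P115188 were 1.95 ± 0.45 (SD, n = 4), 1.88 ± 0.25, 1.73 ± 0.22 and 1.50 ± 0.12 on days 2 to 5, and no neighbouring days differed beyond the call threshold. Those of A_15_P115697 were 0.97 ± 0.18, 1.09 ± 0.11, 1.07 ± 0.04 and 0.96 ± 0.07. On day 5 both probes were still above day 1, by 0.85 and 0.50 (limma adjusted p = 7.64e-05 and 2.50e-06). Within the scan batch of 24 arrays the rise from day 1 to day 2 was 1.25 and 0.46 (both called), and within the batch of 11 arrays 1.13 and 0.44.

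The 2 *dct* probes, which the array assigns to the same RefSeq transcript, rose by different amounts in the ratios. The difference between their log2 ratios grew from 0.19 ± 0.21 on day 1 to 0.97 ± 0.27 on day 2 in DMSO embryos, by 0.79. It grew in 4 of 4 experiments, by 0.69 to 0.88 (exact permutation test over pairs of the same experiment, two-sided, p = 0.125, the smallest that 4 pairs allow; the test was chosen after the values were seen). As embryo levels, the difference grew by 0.48, in 4 of 4 experiments and by 0.09 to 0.89 (the same exact test, p = 0.125). There, where 28.4% of all probes were called, the rises were 1.22 (SE 0.16, limma adjusted p = 1.79e-07) and 0.74 (SE 0.25, adjusted p = 0.0209), and the second was not called without replicate 3 or without replicate 4 (adjusted p up to 0.182). The Zf4 signal was 414 to 1366 intensity units for A_15_P115188 and 2132 to 7281 for A_15_P115697.

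*tyr* was dim, at 17.8 to 52.0 intensity units in the embryo channel and 4.91 to 17.8 in the Zf4 channel. Its log2 ratios in DMSO replicates 1 to 4 were 0.53, 1.03, 0.96 and 1.34 on day 1, 1.94, 1.73, 1.17 and 1.51 on day 2, and 0.95, 0.97, 0.87 and 0.42 on day 3. Day 2 was the highest day and did not overlap with day 3. It was 0.62 above day 1 (SE 0.25, limma adjusted p = 0.0601, higher in 4 of 4 experiments) and day 3 was lower by 0.78 (SE 0.25, adjusted p = 0.0337, in 4 of 4), which was the 1 of 7 probes called in that step against 12.8% of all probes. The fall was called without replicate 3 and not without replicate 1, 2 or 4 (adjusted p up to 0.175). The difference was -0.53 within the scan batch of 24 arrays (adjusted p = 0.566) and -1.09 within that of 11.

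The embryo level of *tyr* rose by 0.68 from day 1 to day 2 (SE 0.16, 1.61-fold, limma adjusted p = 0.00149), and the rise stayed called without any one replicate. Within the scan batch of 24 arrays, where both days had replicates 2 and 3 only, the rise was 0.81 (adjusted p = 0.00957). It was 0.27 within the batch of 11. The DMSO means of the 5 days in turn were -3.64 ± 0.39 (SD, n = 4), -2.96 ± 0.18, -3.22 ± 0.20, -3.75 ± 0.24 and -3.82 ± 0.10. From day 2 to day 3 the level was lower by 0.26 without a call (adjusted p = 0.401) and from day 3 to day 4 it fell by 0.52 (adjusted p = 0.0353). The latter was called only without replicate 3 among the fits that left out a replicate (adjusted p up to 0.240 in the others). Day 5 and day 1 differed by -0.18 (adjusted p = 0.415). In TCDD embryos the *tyr* levels of the 5 days were -3.60 ± 0.29, -3.14 ± 0.11 (n = 3), -3.22 ± 0.22, -3.48 ± 0.23 and -4.03 ± 0.16, and no step was called (adjusted p = 0.0590 from day 1 to day 2 and 0.0550 from day 4 to day 5). With the experiment as a block the last step, a difference of -0.54 without overlap, was called (adjusted p = 0.0314), as was that of *dct* A_15_P115188 in the same step (-0.51, adjusted p = 0.0343 with the block and 0.0620 without), where 4.09% of all probes were called without the block.

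Counted over the 7 probes, the change over days in DMSO embryos (moderated F test of limma) was called for 4 probes in the ratios, namely both *dct* probes, *tyr* and *mitfa* A_15_P121123, where 49.9% of all probes were called. *sox10* was not called there (adjusted p = 0.239), although its day 5 against day 1 was. That single comparison was called for 4 of the 7 ratios, those of both *dct* probes, *sox10* and *mitfa* A_15_P121123. In the embryo levels the change over days was called for 7 of 7, where 48.5% of all probes were called. In TCDD embryos it was called for 7 of 7 on both scales, where 48% and 50.4% of all probes were called.

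The genes that the array lists under older names bear on the same cells. *tyrp1b*, a melanosomal enzyme, has the probes A_15_P105449 and A_15_P110475. The embryo level of A_15_P105449 in DMSO replicates 1 to 4 was 0.20, -0.16, -0.62 and 0.50 on day 1 and 3.09, 2.88, 3.11 and 3.05 on day 2. The rise was 3.05 (SE 0.19, 8.30-fold, limma adjusted p = 2.14e-14) for this probe and 3.03 (SE 0.25, 8.16-fold, adjusted p = 1.44e-11) for the other. In the ratios it was 2.43 (SE 0.32, adjusted p = 2.63e-07) and 0.64 (SE 0.55, adjusted p = 0.451). The Zf4 signal of A_15_P110475 was well above background on 21 arrays, and that of A_15_P105449 on 38. On no day was either probe called for TCDD on either scale. The embryo levels of A_15_P110475 on day 2 did not overlap (4.66 to 5.17 in TCDD and 4.31 to 4.64 in DMSO).

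*kita*, the receptor tyrosine kinase that melanoblasts need for migration and survival, was listed as *kit* (A_15_P105899). Its direction from day 1 to day 5 in DMSO embryos depended on the scale: the ratio fell by 0.37 (SE 0.15, limma adjusted p = 0.0379) and the embryo level rose by 0.43 (SE 0.15, adjusted p = 0.0165). The first was not called without replicate 1 or 2 (adjusted p up to 0.142), and the second without replicate 1 or 3 (adjusted p up to 0.0990). Its embryo signal was 36.6 to 75.2 intensity units over all arrays, and its Zf4 signal was 20.2 to 48.9. On day 4 all 4 TCDD embryo levels of *kita* (-2.51 to -2.24) were above all 4 DMSO levels (-3.26 to -2.66), a difference of 0.47 (SE 0.15, limma adjusted p = 0.283) that was not called. The *kita* ratios of that day overlapped (-0.23 to 0.39 in TCDD and -0.53 to -0.16 in DMSO).

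TCDD was then compared with DMSO on each day. Of the 7 probes 0 were called in the ratios at any of the 5 ages, where 0.014%, 0.703%, 2.75%, 0.893% and 6.27% of all probes were called from day 1 to day 5 in turn. With the experiment as a block, or with a term for scan batch, 1 was called on day 5, and the share of all probes in those fits is not given. At an unadjusted p under 0.05 the counts were 1, 0, 0, 0 and 2 of 7, beside 3%, 8.51%, 15.2%, 8.67% and 18% of all probes. In the embryo levels 0 were called on any day, where 0.0233%, 0.0884%, 1.14%, 0.135% and 5.73% of all probes were called, and the counts at an unadjusted p under 0.05 were 0 of 7 on days 1 to 4 and 1 of 7 on day 5, beside 2.07%, 7.03%, 12.5%, 6.76% and 17.3% of all probes. Averaged over the 5 days 0 of 7 were called on either scale, where 12.2% of all probes were called in the ratios and 9.02% in the embryo levels. The median difference of the 7 probes in the ratios was 0.14, 0.01, 0.04, -0.20 and -0.09 on days 1 to 5, and that of all probes lay within 0.03 of 0.

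**Figure D4:**
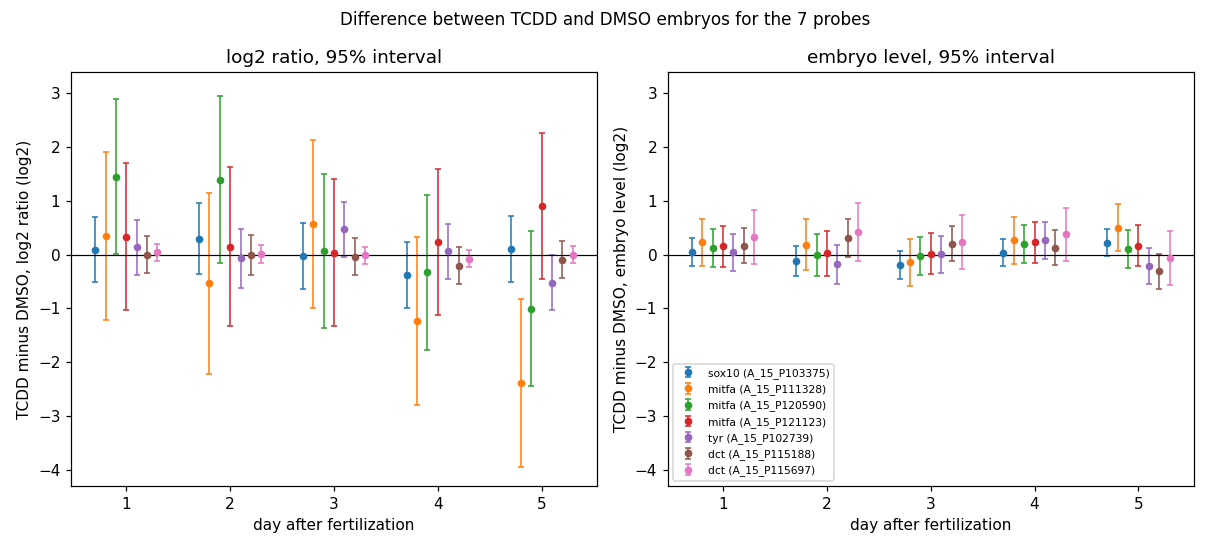
Difference between TCDD and DMSO embryos (log2, vertical axis) on each day (horizontal axis) for the 7 probes, in the log2 ratios (left) and the embryo levels (right), with the 95% confidence interval of limma. The differences run from -2.39 to 1.45 in the ratios and from -0.31 to 0.50 in the embryo levels, and the interval of mitfa A_15_P111328 on day 5 lies below 0 in the ratios and above 0 in the embryo levels.

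The 95% intervals give how large a difference could still be. For *dct* the 95% intervals of the TCDD difference in the ratios lay within -0.55 to 0.36 over both probes and all days. For *sox10* they lay within -0.99 to 0.96 in the ratios and within -0.45 to 0.48 in the embryo levels, and for *tyr* within -1.03 to 0.98 and -0.54 to 0.60. For *mitfa* those in the embryo levels lay within -0.58 to 0.94. For *dct* in the embryo levels the intervals reached from -0.63 to 0.97. There the TCDD levels of A_15_P115188 on day 2 (3.73 to 4.02) lay above all 4 DMSO levels (3.43 to 3.66), without a call (0.31 higher, SE 0.17, limma adjusted p = 0.783), and its ratios on that day differed by -0.01. Its TCDD levels on day 3 (3.70 to 3.98) also lay above the DMSO levels (3.41 to 3.67) without a call, and its ratios then differed by -0.04. The intervals in the ratios of *mitfa* reached from -3.95 to 2.95.

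The largest TCDD difference in the ratios of the 7 probes was that of *mitfa* A_15_P111328 on day 5. Its log2 ratios in replicates 1 to 4 were 1.27, 1.21, 1.30 and 1.52 in TCDD embryos and 6.28, 2.39, 4.27 and 1.91 in DMSO embryos. The groups did not overlap, and TCDD was lower in 4 of 4 experiments, with a difference of -2.39 (SE 0.77, limma adjusted p = 0.0589). With the experiment as a block the same difference was called (SE 0.71, adjusted p = 0.0303), and a fit with a term for scan batch put it at -2.22 (adjusted p = 0.0386). It was -3.07 within the batch of 24 arrays (adjusted p = 0.0899) and -0.50 within that of 11, between 2 TCDD arrays and 1 DMSO array. Without one replicate it ranged from -3.05 to -1.51, and no such fit called it.

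The channels of that probe went different ways. Its Zf4 signal was 16.8, 17.7, 15.5 and 10.9 intensity units on the TCDD arrays of day 5, well above background on 4 of 4, and -3.18, 6.32, -8.60 and 8.36 on the DMSO arrays, on 0 of 4. Its embryo signal was 92.3, 85.1, 58.4 and 61.0 in TCDD and 44.2, 67.3, 34.4 and 73.1 in DMSO. The embryo level was 0.50 higher in TCDD (SE 0.21, limma adjusted p = 0.203). The ratios of the other *mitfa* probes on day 5 were lower for A_15_P120590 (adjusted p = 0.499) and 0.91 higher for A_15_P121123 (adjusted p = 0.528), without a call, and their embryo levels were higher by 0.11 and 0.16. The part of the Zf4 channel in the ratio was not tested.

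The remaining differences at an unadjusted p under 0.05 were those of *mitfa* A_15_P120590 on day 1 and of *tyr* on day 5. The ratios of A_15_P120590 were 7.96, 7.58, 4.50 and 6.84 in TCDD and 6.29, 5.00, 4.70 and 5.08 in DMSO, 1.45 higher (SE 0.70, limma adjusted p = 1.00), and the embryo levels differed by 0.12. Those of *tyr* on day 5 were 1.11, 0.51, 0.01 and 0.18 in TCDD and 0.71, 1.14, 1.07 and 0.95 in DMSO, 0.52 lower (SE 0.25, adjusted p = 0.265). Replicate 1 went the other way, and the groups overlapped.

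Other genes of pigment biology were counted in 7 lists, with 1 probe a gene. Among 11 further genes of melanin and melanosomes, 2 were called higher in TCDD embryos on day 5 and 0 on days 1 to 4, and the median difference of the list was 0.08 to 0.14 on the 5 days. On day 5, 3.64% of all probes were called higher. The genes were *cd63*, a tetraspanin that sorts Pmel into melanosomes in mammals (its probe A_15_P115042 carries the older symbol *cd163* on the array and was named through its RefSeq accession), and *rab32a*, a small GTPase that brings enzymes such as tyrosinase to melanosomes in mammals. The ratio of *cd63* on day 5 was -0.17 to 0.74 in TCDD and -0.61 to -0.49 in DMSO, without overlap, 0.87 higher (SE 0.15, 1.82-fold, limma adjusted p = 0.000238). Its embryo level was 0.95 higher (adjusted p = 0.000202), and both were called in each fit that left out a replicate. *rab32a* was 0.39 higher in the ratios (SE 0.09, adjusted p = 0.00489) and 0.19 higher in the embryo levels without a call (adjusted p = 0.498), and the ratio was not called without replicate 3 or without replicate 4 (adjusted p up to 0.181). Averaged over the 5 days, 4 of the 11 genes were called higher and 0 lower in the ratios, where 7.03% of all probes were called higher (*cd63*, *rab32a*, *gpr143* and *atp6v1h*, by 0.36, 0.16, 0.13 and 0.10), and 1, *cd63*, was called in the embryo levels. *cd63* is expressed in many cell types besides pigment cells.

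Among 20 neural crest and melanoblast regulators, 1 was called higher and 1 lower on day 3, where 1.07% and 1.68% of all probes were, and 0 on the other days. *msx1b*, a homeobox gene of the neural plate border, was 0.36 higher (SE 0.09, limma adjusted p = 0.0150), and *pax7a*, a paired-box gene used by xanthophores, was 0.59 lower (SE 0.14, adjusted p = 0.0179). Their embryo levels were 0.31 higher and 0.42 lower, without a call (adjusted p = 0.387 and 0.346). In the ratios *msx1b* was called without replicate 3 and in none of the other 3 fits that left out a replicate (adjusted p up to 0.178), and *pax7a* in none of the 4 (adjusted p 0.0540 to 0.215). Averaged over the 5 days both were called in the ratios, *msx1b* 0.20 higher and *pax7a* 0.35 lower, where 7.03% of all probes were called higher and 5.16% lower, and neither was called in the embryo levels. From day 1 to day 2 in DMSO embryos more genes of this list were called lower than higher. In the ratios 2 of 20 were called higher and 7 lower, against 13.5% and 15.5% of all probes. In the embryo levels 2 were called higher and 8 lower, against 13.7% and 14.7% of all probes.

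In the other 5 lists, 3 genes were called for TCDD on some day in the ratios. On day 5, 3.64% of all probes were called higher and 2.63% lower, and on day 3, 1.68% were called lower. *rlbp1b*, a gene for a retinal-binding protein, was 1 of 10 genes of a list made for the retinal pigment epithelium. Proteins of this kind also occur in Müller glia, so a call in that list does not mark the pigment epithelium. *rlbp1b* was 0.94 lower on day 5 (SE 0.21, 1.91-fold, limma adjusted p = 0.00416), and its embryo level was 0.75 lower (adjusted p = 0.0447). The ratio was not called without replicate 3 or without replicate 4 (adjusted p up to 0.0761), and the embryo level was called without replicate 2 and in no other such fit (adjusted p up to 0.317). *egr2a*, a zinc finger factor, was 1 of 15 genes of a list made for myelinating glia and otic derivatives of *sox10* cells. The list also names *gfap* and *sox2*, so a call in it does not mark those cells. *egr2a* was 1.32 higher on day 5 (SE 0.32, 2.49-fold, limma adjusted p = 0.00915), and its embryo level was 1.61 higher (adjusted p = 0.000354). Its ratio was not called without replicate 1 or without replicate 4 (adjusted p up to 0.171), and its embryo level was called in each of the 4 fits. The median difference of its list on day 5 was -0.19 in the ratios and -0.20 in the embryo levels, and that of the retinal pigment epithelium list -0.18 and -0.20. *mc2r*, the corticotropin receptor, was called lower on day 3 among 7 pigment hormones and receptors, with an embryo signal well above background on 0 of 4 TCDD arrays and 1 of 4 DMSO arrays of that day, so no fold is given. This ratio was called without replicate 3 and in no other fit that left out a replicate (adjusted p up to 0.362). Of 10 genes of xanthophores and of pteridine and purine synthesis, and of 7 of iridophores, 0 were called on any day. Averaged over the 5 days, *rlbp1b* was called lower in the ratios (by 0.36) and *egr2a* higher on both scales (0.64 in the ratios and 0.49 in the embryo levels). So was *paics*, an enzyme of purine synthesis and 1 of the 10 genes of the xanthophore, pteridine and purine synthesis list. That list does not mark xanthophores alone. *paics* was 0.61 higher in the ratios (limma adjusted p = 0.00229) and 0.58 in the embryo levels (adjusted p = 0.00683), in 17 of 19 pairs of arrays of the same experiment and day. In the embryo levels 4.88% of all probes were called higher on that average. *paics*, *gpr143* and *atp6v1h* were singled out after their values were seen.

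Likeness to the members was read as Pearson's r of the log2 ratio over the 39 arrays, as a description of arrays that share their groups. The mean profile of *dct* (A_15_P115697) and *tyr* was most like that of *acta1b* (r = 0.83), *tbx2b* (0.81), *dcn* (0.79), *tpma* (0.79) and *shox2* (0.78). The ratios of *dct* A_15_P115697 and *tyr* correlated with each other at r = 0.01, so this mean is not a profile that both genes share. *sox10* was most like *mdka* (0.85), *sardh* (0.83) and *foxd2* (0.83). No genes are named for the ratio of *mitfa*, whose Zf4 signal was well above background on 17 arrays at most. Between *sox10* and the 3 *mitfa* probes the ratios correlated at r = -0.04, 0.45 and 0.47, and with group means removed at -0.43, -0.02 and 0.08. Their embryo levels correlated at 0.89 to 0.91, and with group means removed at 0.74 to 0.80. With group means removed, the *mitfa* levels went with those of the *dct* probes at -0.69 to -0.46 and with *tyr* at -0.43 to -0.28. Likewise, *sox10* went with the *dct* probes at -0.38 and -0.52 and with *tyr* at -0.39. The part of these values that comes from shifts shared by a whole array was not tested. The embryo level of *dct* A_15_P115188 went with those of the *tyrp1b* probes at 0.91 and 0.89, and with group means removed at 0.52 and 0.25, and that of *dct* A_15_P115697 at 0.67 and 0.60, and at 0.15 and -0.25.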

How the data were processed

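Zebrafish 22K Agilent arrays of 39 embryo RNA samples were used. The authors deposited scanner output of Agilent Feature Extraction 8.1.1, with the intensity of each spot in both channels, the log10 ratio of red to green after background subtraction and dye normalization, and an error score of that ratio. A series table holds the same log10 ratios (838305 of 838305 values equal within 1e-06). The sample labels give Cy5 for embryo RNA on every array.

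Ratios were converted to log2 and outlier spots set to missing. limma 3.58.1 (R 4.3.3) fitted 1 mean per group over all 39 arrays, without a block. The fit was tested on simulated data. Exact tests used scipy 1.17.1, tables pandas 2.3.3 and figures matplotlib 3.10.9 (Python 3.11.15).

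Depth on an array is signal over background: the software marked 16329 to 18624 of the 21495 probes as clearly above it in the embryo channel, depending on the array, and 16182 to 19110 in the Zf4 channel. The number of arrays limits precision. Replicate numbers mark the independent experiment, as the design text says, so they pair arrays: deviations from group means correlated at a median of 0.234 over 19 pairs of the same experiment and of -0.0675 over 57 of different ones. Scan batches, read from the file headers, held 4, 24 and 11 arrays. The batch of 4 had 1 array per group and gives no value of its own.

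Genes outside the rule were matched through identifiers or synonyms to current symbols (RefSeq, GRCz12tu); of 5993 RefSeq identifiers on the array 5565 matched. In the lists and for likeness, a gene's probe was the one with the highest mean log2 signal of both channels. Every member probe is given; of each list, genes called for TCDD on some day are named, up to 4 a list; the 5 or 3 most alike probes are named, except for *mitfa*. The members, the lists and the tests were chosen with earlier results of these data known. Sequences of the genes and their promoters were not analysed here.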

Additional observations from a re-analysis of the deposited data

Results flagged for a closer look

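In 63 groups of 4 arrays (7 probes in 9 groups), the highest or lowest log2 ratio stood apart from the other 3 by Dixon's test in 2, where chance alone gives about 1 in 20. *mitfa* A_15_P120590 in DMSO replicate 1 on day 4 was at 5.79, with the others at 3.23 to 3.38, and its Zf4 signal was not well above background on any array. *dct* A_15_P115697 in DMSO replicate 3 on day 1 was at 0.25, with the others between 0.528 and 0.543; without replicate 3 the rise of this probe to day 2 was 0.50 and stayed called.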

How the results depend on the processing

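Of the 5 days, TCDD calls among the 7 probes stayed at 0 under every alternative on days 1 to 4, and on day 5 in all but 3: 1 probe, *mitfa* A_15_P111328, was called with the replicate block, with a term for scan batch and with the fit limited to probes above background on all arrays. In the ratios the block changed no other call of the 7 probes. In the embryo levels it changed 3, all steps of TCDD embryos that gained a call (*mitfa* A_15_P111328 from day 3 to day 4, and *tyr* and *dct* A_15_P115188 from day 4 to day 5). The counts for DMSO embryos depended on the channel. Change over days was called for 4 probes in the ratios, for 7 in the embryo channel alone (with or without the block) and for 7 in the embryo levels, and for 2 and 0 within the scan batches of 24 and 11 arrays. For day 3 against day 2 the count was 1 in the ratios, 3 with normexp and loess, 2 in the embryo channel alone (with or without the block), 3 in the embryo levels, 0 with arrays centred on their median, 0 within either batch, and 0 to 1 without one replicate. For day 4 against day 3 it was 0, and 2 with normexp and loess, 3 in the embryo channel alone (4 with the block) and 5 in the embryo levels. Of all probes, 12.8% were called in the ratios and 11.7% in the embryo levels for day 3 against day 2. For day 4 against day 3 the shares were 12.9% and 10.6%. The share of all probes is not given for the other fits, so their counts say nothing particular to the pigment probes. Within the batch of 11 arrays, which left 1 residual degree of freedom, day 2 against day 1 and day 5 against day 1 gave 0 calls, and so did change over days and each step in the embryo levels. For day 4 against day 3 the embryo levels gave 2 calls within the batch of 24 arrays and 3 to 5 without one replicate. The change of *mitfa* A_15_P111328 depended on the measure. From day 3 to day 4 it was 0.17 in the ratios (SE 0.77), -0.81 in the embryo channel alone (with or without the block) and -1.03 in the embryo levels. From day 1 to day 5 it was 0.02 in the ratios (SE 0.77), -0.93 with normexp and loess, -1.57 in the embryo channel alone (with or without the block) and -2.20 in the embryo levels. Neither difference in the ratios was called, so no direction is read from them. The cause of the dependence was not tested. Of 665 single TCDD values in the ratios, 637 kept their direction and call or moved by less than the replicate SD, and of 630 values between days 559 did. That SD was 0.98 to 1.10 for the *mitfa* ratios, so large moves of these probes still counted as kept. Dim signal limits *mitfa* and *tyr*: the Zf4 signal of 2 *mitfa* probes was not well above background on any array. The embryo levels, the fits within scan batches and the comparison of day 5 with day 1 were added after the data had been seen.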
